A study of Mus musculus with 6 samples.

Results

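Autotaxin, encoded by Enpp2, and the lipid phosphate phosphatase genes Plpp1, Plpp2 and Plpp3 with their relatives Plppr1 to Plppr5 were followed through nuclei of the postnatal mouse brain after an intraventricular injection of lysophosphatidic acid (LPA). These 9 genes, chosen by symbol, were 9 of the 32285 genes in the deposited count matrices. C57BL/6 S-56 mice received 5 µl into the right lateral ventricle at postnatal day 7. The LPA group was given LPA 18:1 carried by bovine serum albumin free of fatty acids (0.01%) and the vehicle group the albumin carrier alone, and the LPA concentration given to the sequenced mice is not stated in the sources used here. Brains without olfactory bulbs and cerebellum were taken at postnatal day 15, 8 days later, and nuclei sorted as NeuN-negative were profiled with the 10x Genomics 3′ v3 kit in 3 LPA and 3 vehicle libraries. The legends of the study treat each snRNA-seq sample as 1 mouse, which the labels do not state, and p-values measure the spread between these libraries.

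Autotaxin is a secreted lysophospholipase D that releases LPA from lysophosphatidylcholine outside cells, and LPA then acts on its own family of G protein-coupled receptors. Plpp1, Plpp2 and Plpp3 are membrane enzymes with an outward-facing active site that remove the phosphate of LPA and so end its action. The Plppr proteins (plasticity-related genes) have the same membrane-spanning build but lack residues needed for catalysis, and they are known from neurite growth, filopodia and synapses, where Plppr4 limits LPA signalling at excitatory synapses. In the brain, choroid plexus epithelium and oligodendrocytes are known sources of autotaxin, and astrocytes are known to carry Plpp3.

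The annotation used (GENCODE M21 on GRCm38, the build of the files' mm10 reference) lists all 9 as protein-coding genes. Enpp2 lies on chromosome 15 from 54838901 to 54952892 on the minus strand. Plpp1 was found on chromosome 13 from 112800792 to 112867894 on the plus strand. Plpp3 spans chromosome 4 from 105157347 to 105232764, and Plppr1, which occupies 281.0 kb, the same chromosome from 49059273 to 49340259, both on the plus strand. Plppr2 lies on chromosome 9 from 21937033 to 21948907 on the plus strand. Plpp2 (79526430 to 79533796) and Plppr3 (79860475 to 79874634) share the minus strand of chromosome 10, with 326.7 kb between them. Plppr4 (117319139 to 117360876, minus strand) and Plppr5 (117574836 to 117689507, plus strand) are separated by 214.0 kb on chromosome 3. Neither neighbouring pair had the same order of cell types: Plppr5 was highest in oligodendrocyte precursors and Plppr4 in inhibitory neurons, while Plpp2 was highest in oligodendrocytes and Plppr3 in neurons.

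RefSeq promoter windows (GRCm38.p6, 250 bases before to 50 after the start) were at hand for 7 of the 9 genes, all but Enpp2 and Plpp1. The 4 shown are those of Plppr1 and Plppr5, and of Plppr3 and Plppr4, because these were the 2 pairs of members whose levels followed each other most closely over cell types. They are written 5′ to 3′ on the strand of the gene, in lower case, with the GC box GGGCGG on either strand (CCGCCC) and the E-box CAGCTG in capitals. The windows are chr4:49059212-49059511 (plus strand), chr3:117574977-117575276 (plus strand), chr10:79874585-79874884 (minus strand) and chr3:117360827-117361126 (minus strand).
Plppr1: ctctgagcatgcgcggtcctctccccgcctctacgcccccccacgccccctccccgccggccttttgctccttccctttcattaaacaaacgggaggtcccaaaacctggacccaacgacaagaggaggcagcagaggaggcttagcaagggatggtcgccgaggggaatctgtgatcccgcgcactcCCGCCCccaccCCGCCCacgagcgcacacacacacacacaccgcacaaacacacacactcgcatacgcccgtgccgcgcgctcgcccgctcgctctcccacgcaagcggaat
Plppr5: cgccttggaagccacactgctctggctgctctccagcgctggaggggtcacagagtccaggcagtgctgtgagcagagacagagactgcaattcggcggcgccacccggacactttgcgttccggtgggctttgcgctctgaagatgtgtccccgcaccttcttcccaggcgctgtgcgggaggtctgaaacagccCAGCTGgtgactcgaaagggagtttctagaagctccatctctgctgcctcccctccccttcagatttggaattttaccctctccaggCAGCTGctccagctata
Plppr3: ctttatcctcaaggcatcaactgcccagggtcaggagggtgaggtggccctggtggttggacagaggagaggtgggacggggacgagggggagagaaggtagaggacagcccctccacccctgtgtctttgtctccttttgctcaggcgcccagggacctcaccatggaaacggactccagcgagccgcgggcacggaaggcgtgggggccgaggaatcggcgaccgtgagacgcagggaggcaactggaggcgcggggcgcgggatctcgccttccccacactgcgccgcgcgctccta
Plppr4: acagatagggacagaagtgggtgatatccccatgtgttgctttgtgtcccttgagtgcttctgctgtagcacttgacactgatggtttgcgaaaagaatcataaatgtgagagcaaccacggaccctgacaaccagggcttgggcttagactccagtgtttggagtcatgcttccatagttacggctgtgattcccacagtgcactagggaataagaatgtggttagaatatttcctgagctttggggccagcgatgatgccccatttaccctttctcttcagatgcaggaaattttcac
The Plppr1 window held 2 GC boxes, no CAGCTG and 29 CpG, and the Plppr5 window held 0 GC boxes, 2 CAGCTG and 13 CpG. Neither motif was in the windows of Plppr3 (23 CpG) or Plppr4 (4 CpG). Over all 32851 promoter windows, 35.7% held GGGCGG on a strand, 16.3% held CAGCTG, and the median was 7 CpG.

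The 6 libraries held 48852970 to 65688644 UMIs, and 7579 to 11745 nuclei per library were kept, 57443 in all, with library medians of 3732 to 4578 UMIs. Nuclei were clustered without the 9 members, and clusters were named from marker lists, so that 18 types were named and 15.1% of a library's nuclei on average were left unnamed, most because their cluster showed markers of 2 classes. In the types checked against a list of their own, at least 5 of the markers were highest there, from 13 of 13 for oligodendrocytes to 5 of 9 for neuroblasts. Neuronal types were present although the sort gated against NeuN. Activated microglia (442 nuclei) came from LPA libraries alone and cilia-forming ependymal nuclei nearly so, with 74 in LPA and 6 in vehicle libraries, and smooth muscle had 22 nuclei, so that 15 types with at least 10 nuclei in every library could be compared between groups. Xist and chromosome Y transcripts were those of males in LPA 1, vehicle 1 and vehicle 3 and of females in the other 3 libraries. Among kept nuclei, 804 had a barcode also found in another library, and 235 barcodes occurred in all 6 libraries.

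Enpp2 was highest in choroid plexus epithelium, followed by the classes of the oligodendrocyte lineage, from oligodendrocytes down to precursors. Clusters within these classes did not all keep that order. Levels are given as CPM, the UMIs of a gene per 1000000 UMIs of that type's nuclei in a library, and are a description without a test because types are clusters of the same nuclei. In choroid plexus the Enpp2 level was 5380 to 6756 CPM over the 6 libraries, with a mean of 5999 ± 504 (SD, n = 6). It was 2051 ± 80.7 CPM in oligodendrocytes, 822 ± 42.4 in committed precursors and newly formed oligodendrocytes, 382 ± 26.5 in oligodendrocyte precursors and 287 ± 23.9 in meningeal fibroblasts, the cells of the brain's coverings. Each of these 5 library ranges lay clear of the next, and the fifth lay above the sixth, that of microglia at 138 to 235 CPM. From microglia (195 ± 40.6 CPM) through endothelium (169), border macrophages (154), pericytes (130), ependyma (127), astrocytes (117), neuroblasts (102), excitatory neurons (75.5) and other neurons (73.0) to inhibitory neurons (59.1), neighbouring Enpp2 ranges overlapped at every step. Activated microglia had 110 to 153 CPM and cilia-forming ependymal nuclei 52.2 to 78.9 CPM of Enpp2 in the 3 LPA libraries, and the 22 smooth muscle nuclei held 9 Enpp2 UMIs in all.

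**Figure D1:**
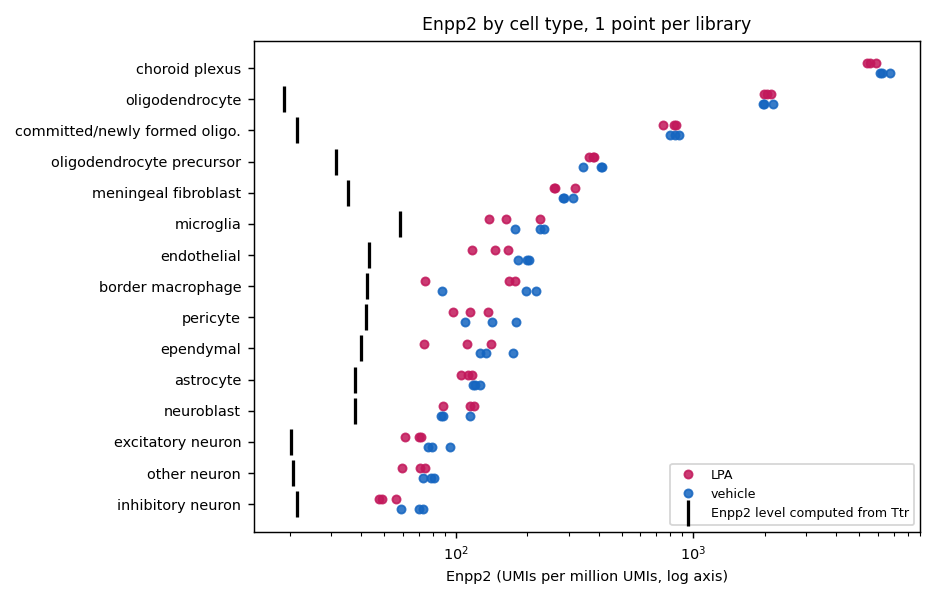
Enpp2 level in UMIs per 1000000 UMIs (log axis) in 15 cell types, with 1 point per LPA or vehicle library. Vertical ticks mark the mean Enpp2 level computed from the Ttr UMIs of a type, a choroid plexus transcript. Choroid plexus (mean 5999) and oligodendrocytes (mean 2051) stand clear of all others, and the points of every other type lie above its tick, farthest in the 3 classes of the oligodendrocyte lineage and in meningeal fibroblasts.

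Oligodendrocytes in the mature class differed little among themselves, with pooled Enpp2 levels of 1996 CPM in the larger cluster of 3806 nuclei and 2138 CPM in the cluster of 1820 nuclei. Within the committed and newly formed class, Enpp2 was 581 CPM in the cluster led by Gpr17 and Neu4 (865 nuclei), 402 CPM in the cluster led by Tmem108 (1354 nuclei) and 1094 CPM in the cluster led by Cemip2 and Casr (2224 nuclei). Meningeal fibroblasts were uneven too. The cluster led by Ptgds and Slc6a20a had 552 CPM of Enpp2 (811 nuclei), that led by Aox3 and Lama1 354 CPM (2024 nuclei), that led by Dpp4 145 CPM (310 nuclei) and that led by Slc47a1 116 CPM (1493 nuclei). Ptgds encodes the enzyme that makes prostaglandin D2 in the leptomeninges, and Slc47a1 an organic cation transporter.

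Because nuclei of very different depth were compared, each nucleus was also thinned to 1000 UMIs. At that depth 97.0% ± 0.67 of choroid plexus nuclei (SD, n = 6 libraries) and 84.2% ± 1.5 of oligodendrocytes had an Enpp2 UMI, as did 47.5% ± 2.2 of committed and newly formed oligodendrocytes, 32.3% ± 3.5 of oligodendrocyte precursors and 23.6% ± 1.8 of meningeal fibroblasts. In inhibitory neurons, which are not known to make autotaxin, the share was 6.4% ± 1.0. Without thinning the shares were 99.9% in choroid plexus (library median depths of 3362 to 4865 UMIs) and 27.4% in inhibitory neurons (4718 to 6716 UMIs). Thinning left out 157 LPA and 217 vehicle nuclei that were too shallow.

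RNA free in the suspension adds UMIs to nuclei that do not make a transcript, and Ttr, the choroid plexus transthyretin gene, was therefore read beside Enpp2. An Enpp2 level was computed for each other type from its Ttr UMIs at the Enpp2 to Ttr ratio of choroid plexus. Measured Enpp2 was 13.1 times this computed level in oligodendrocyte precursors (9.23 to 20.03 over 6 libraries) and 8.34 times in meningeal fibroblasts (7.08 to 10.5). In microglia, endothelium, border macrophages, pericytes, ependyma, astrocytes, neuroblasts and the 3 neuronal types the mean ratio was between 2.82 and 4.33, leaving out 1 border macrophage library without a Ttr UMI. This level covers free choroid plexus RNA and not that of oligodendrocytes, which also carry Enpp2. The thinned shares of nuclei with an Enpp2 UMI in these 10 types ran from 6.4% in inhibitory neurons to 16.9% in microglia. Neither these shares nor the ratios tell low expression from free RNA, so the low levels there are assigned to neither.

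The Enpp2 UMIs of a library were spread unlike its nuclei. Oligodendrocytes held 36.9%, 36.3% and 36.8% of the Enpp2 UMIs in LPA 1, 2 and 3 and 40.6%, 46.3% and 43.0% in vehicle 1, 2 and 3, while making up 9.67% of the nuclei on average. All LPA shares were below all vehicle shares, by 6.60 percentage points in the mean, and the two-sided exact permutation test gave p = 0.1, the smallest that its 20 assignments allow, with an adjusted p of 0.30 over 18 types. Choroid plexus held 17.9%, 20.1% and 18.4% in LPA and 22.7%, 10.1% and 17.8% in vehicle libraries, from 1.69% of the nuclei. These choroid plexus shares overlapped between groups (exact permutation test, p = 0.7). Committed and newly formed oligodendrocytes held 13.3% ± 2.3 in LPA and 10.2% ± 0.81 in vehicle libraries (SD, n = 3; exact permutation test, p = 0.2). Shares did not overlap between groups in 6 types, all at p = 0.1 and an adjusted p of 0.30 by the exact permutation test: they were lower in LPA libraries for oligodendrocytes, meningeal fibroblasts (1.75% against 3.31%) and inhibitory neurons (0.913% against 1.19%), and higher for oligodendrocyte precursors (3.23% against 1.75%), cilia-forming ependymal nuclei (0.0303% against 0.00360%) and activated microglia, which the vehicle libraries lacked. These shares moved with the shares of nuclei, since oligodendrocytes were 7.75% of the nuclei in LPA and 11.6% in vehicle libraries, meningeal fibroblasts 4.87% and 10.7%, and oligodendrocyte precursors 6.49% and 4.17%. Unnamed nuclei held 17.8% of the Enpp2 UMIs from 15.1% of the nuclei.

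**Figure D2:**
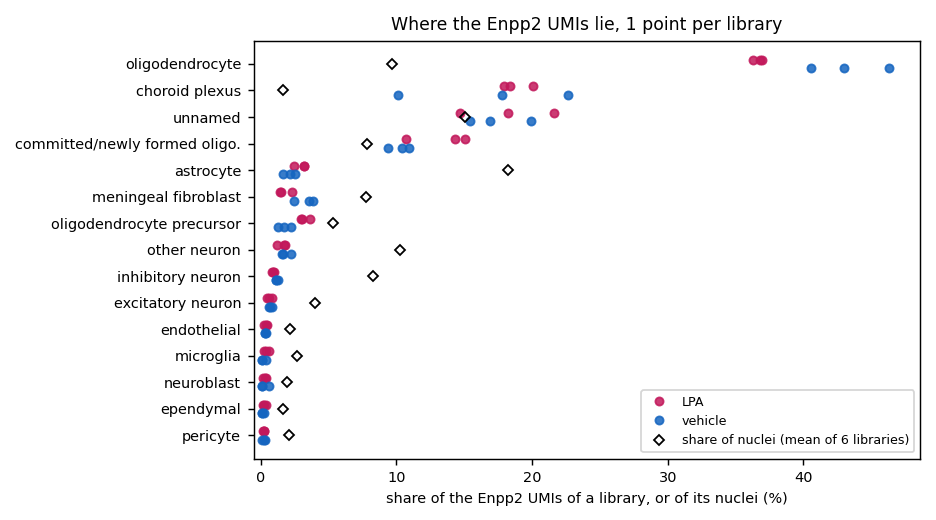
Share of a library's Enpp2 UMIs (%) that lay in each cell type, with 1 point per library, for types with a mean share of at least 0.2%. Open diamonds give the mean share of nuclei. Choroid plexus nuclei were 1.69% of nuclei and held 10.1% to 22.7% of the Enpp2 UMIs, and the 3 LPA points of oligodendrocytes lie below their 3 vehicle points.

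Plpp3 was an astrocyte gene in these libraries. Its level was 1409 to 1733 CPM in astrocytes (mean 1525 ± 128, SD, n = 6), and meningeal fibroblasts followed with 504 ± 51.0 CPM, both ranges clear of the next. Oligodendrocyte precursors (233 CPM) and ependyma (218) overlapped, and both lay above committed and newly formed oligodendrocytes (169). From there on all neighbours overlapped, through neuroblasts (163), oligodendrocytes (163), choroid plexus (148), pericytes (131), microglia (97.9), excitatory neurons (89.7), endothelium (86.0), border macrophages (83.5) and other neurons (60.2) to inhibitory neurons (50.4 CPM). The 3 astrocyte clusters held 1712, 1395 and 1054 CPM of Plpp3. Among meningeal fibroblasts the order of Plpp3 was the reverse of that of Enpp2 at its ends, with 794 CPM in the Slc47a1 cluster and 222 CPM in the Ptgds cluster.

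Astrocyte RNA free in the suspension was judged in the same way from Slc1a2, the astrocyte glutamate transporter gene. Measured Plpp3 was 11.6 times the level computed from Slc1a2 in meningeal fibroblasts, 6.93 times in oligodendrocytes, 6.05 times in committed and newly formed oligodendrocytes, 3.504 times in ependyma, 3.17 times in oligodendrocyte precursors and 2.40 times in pericytes. In the remaining types the mean ratio was 0.74 to 1.64, and Plpp3 there was not told apart from background.

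Plpp1 and Plpp2 had other patterns. Among the 15 types with levels in every library, Plpp1 was highest in ependyma (145 ± 23.5 CPM), choroid plexus (100.8 ± 14.2) and endothelium (99.9 ± 9.8). Their library ranges overlapped in turn and lay above that of meningeal fibroblasts (51.1 CPM). The 22 smooth muscle nuclei, too few to compare, held a pooled 153 CPM of Plpp1 and 290 CPM of Plpp3. The lowest Plpp1 levels of the 15 types were those of oligodendrocytes (14.3 CPM), border macrophages (11.1) and committed and newly formed oligodendrocytes (6.36). Within the latter class Plpp1 was 14.96 CPM in the Gpr17 cluster against 3.70 and 5.67 CPM in the clusters led by Tmem108 and by Cemip2. Plpp2 was highest in this lineage, at 13.4 ± 1.2 CPM in oligodendrocytes and 8.82 ± 2.0 CPM in committed and newly formed cells, with overlapping ranges. Its levels in all other types averaged 7.21 CPM or less, with at least 1 library at 0 UMIs in 10 of them.

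**Figure D3:**
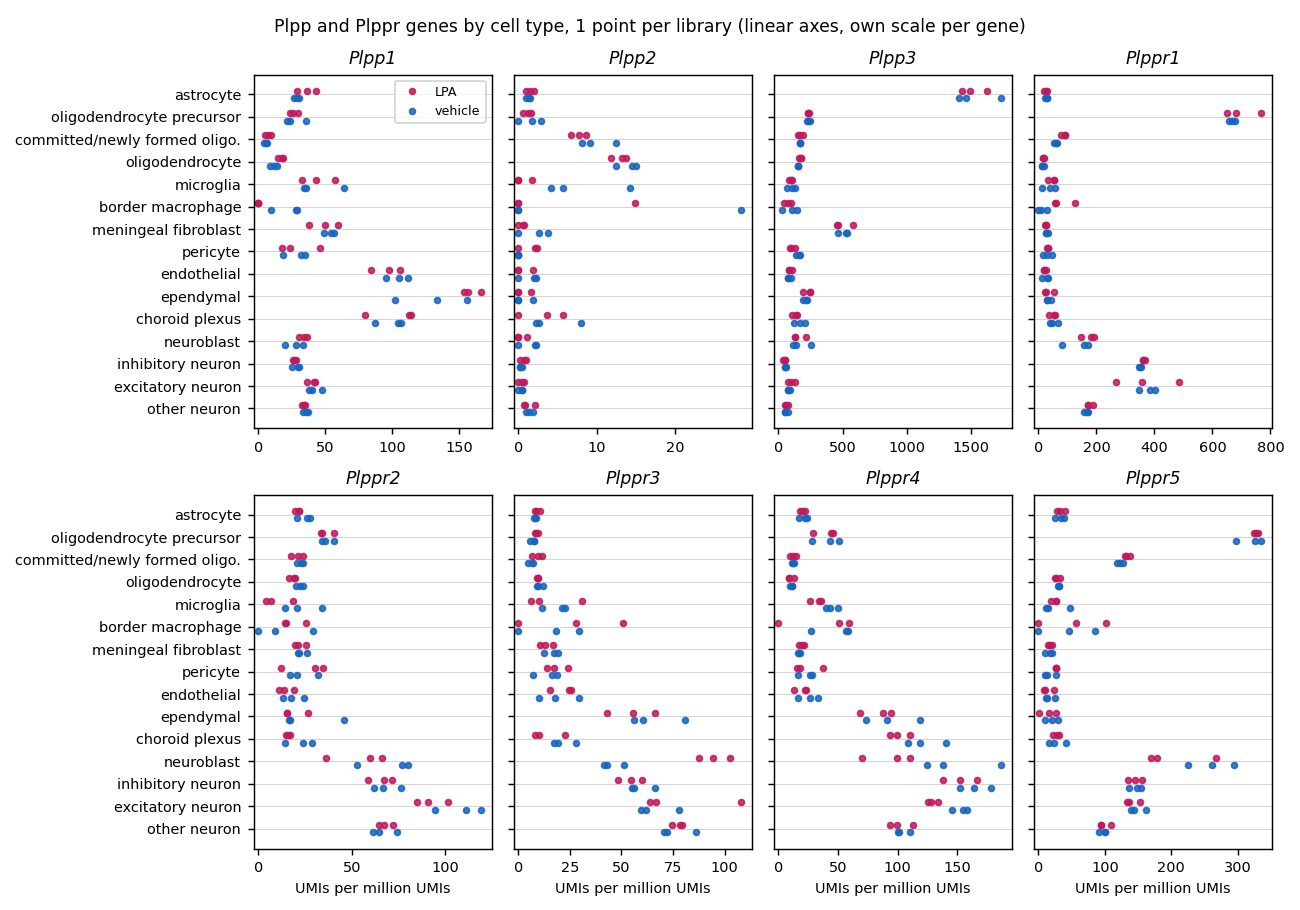
Level of the 8 Plpp and Plppr genes in UMIs per 1000000 UMIs (linear axes, each gene on its own scale) in 15 cell types, with 1 point per LPA or vehicle library. Plpp3 stands out in astrocytes (1409 to 1733) and Plppr1 and Plppr5 in oligodendrocyte precursors. Border macrophages had 17 to 60 nuclei per library.

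The Plppr genes divided between oligodendrocyte precursors and neurons. Plppr1 was 649 to 767 CPM in oligodendrocyte precursors (mean 683 ± 42.7, SD, n = 6), then 373 ± 71.5 in excitatory and 356 ± 8.1 in inhibitory neurons, whose ranges overlapped, 171 in other neurons, 155 in neuroblasts and 74.1 in committed and newly formed oligodendrocytes. Along the lineage its level was lower at each step, at 363 CPM in the Gpr17 cluster, 45.8 in the Tmem108 cluster, 16.6 in the Cemip2 cluster and 15.4 CPM in mature oligodendrocytes, the lowest type. Plppr5 was also highest in oligodendrocyte precursors (324 ± 13.2 CPM), with neuroblasts next (233 ± 50.6), both clear of their neighbours, and then inhibitory neurons (146), excitatory neurons (145) and committed and newly formed oligodendrocytes (128). The neuroblast level mixes unlike nuclei. At a finer clustering, given below, Plppr5 was 137 CPM in the 374 nuclei that kept the name and 281 CPM in a cluster of 795.

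The other 3 were mainly neuronal. Plppr2 was highest in excitatory neurons (100 ± 12.9 CPM), above other neurons (67.4), inhibitory neurons (67.2) and neuroblasts (62.1), and stood at 15.4 to 36.4 CPM in the rest of the 15 types with levels in every library. Plppr3 was 76.9 ± 5.7 CPM in other neurons, 73.0 in excitatory neurons, 70.1 in neuroblasts, 60.4 in ependyma and 56.7 in inhibitory neurons, 5 overlapping ranges, and 7.60 to 21.03 CPM in the rest of the 15 types. The 80 cilia-forming ependymal nuclei, outside these 15, held a pooled 57.5 CPM of Plppr3. Plppr4 was 159 ± 13.98 CPM in inhibitory neurons and 141 ± 13.9 in excitatory neurons, with neuroblasts (122), choroid plexus (112), other neurons (103) and ependyma (89.0) in one overlapping series, and then a gap to border macrophages (42.1). The choroid plexus and ependymal levels of Plppr4 are outside the neuronal pattern, as are 117, 197 and 140 CPM of Plppr4 in the cilia-forming nuclei of LPA 1, 2 and 3. Neuroblast levels of both genes mix unlike nuclei. The 374 nuclei that kept the name at a finer clustering held 148 CPM of Plppr3 and 35.4 of Plppr4. The cluster of 795 held 45.0 and 165 CPM.

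Likeness of pattern was measured as Pearson's r of mean log2(CPM + 1) over 17 types. It is given as a description without p, since the types share libraries. Among members the closest were Plppr1 with Plppr5 (r = 0.88) and Plppr3 with Plppr4 (0.85), and Enpp2 was closest to Plpp2 (0.65). Out of 15550 genes with at least 10 CPM in a type, those most like Enpp2 were Prss48, Gm19500 and Car14 (each r = 0.89). Those most like Plpp1 were Il11ra1 (0.88), Gcc2 (0.87) and Fbxw9 (0.84), and those most like Plpp2 were Relch (0.93), Rffl (0.91) and Ap5z1 (0.90). Plpp3 was nearest to Pxmp2 (0.83), D630003M21Rik (0.82) and Gm11627 (0.82). The neighbours of Plppr1 were Mgat5b (0.98), Lrrtm4 (0.96) and Tafa2 (0.96), and Mgat5b was also near Plppr5 (0.92), with Bmerb1 (0.94) and Pcdh15 (0.92). Plppr2 followed Ina (0.94), A230004M16Rik (0.93) and Stmn3 (0.93). Plppr3 followed Mtus2 (0.92), Grin2a (0.91) and Pitpnm3 (0.89), and Plppr4 followed A830018L16Rik (0.95), Hs6st3 (0.95) and Cdr1os (0.92).

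To ask whether the members responded to the injected LPA 8 days later, UMIs were summed per library and type and compared by edgeR's quasi-likelihood test with Benjamini-Hochberg adjustment over all genes tested in the type, and a gene was called at an adjusted p below 0.05 with a log2 fold-change beyond 0.25 in either direction. Of the 135 pairs of a member and a type, 109 passed edgeR's filter on low counts and were tested. The 26 others were all 9 members in border macrophages, Plpp2 in 12 types, Plppr2 in endothelium, ependyma and microglia, Plppr3 in pericytes and Plppr5 in endothelium. In the test, 2 pairs rose in LPA libraries and 0 fell: Plppr1 in committed and newly formed oligodendrocytes and Plppr3 in neuroblasts. At an unadjusted p below 0.05 there were 14 pairs, 6 higher and 8 lower, which is 12.8% of the pairs against 10.3% of all genes tested in the same 14 types. DESeq2 also called 2 pairs higher and 0 lower. The median log2 fold-change of the 109 pairs was -0.05, while that of all genes tested was between -0.01 and 0.01 in each type.

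The share of all tested genes that were called differed widely between types and forms the background for these counts. It was 7.94% in astrocytes, 2.58% in committed and newly formed oligodendrocytes, 2.05% in ependyma, 1.69% in neuroblasts, 1.16% in meningeal fibroblasts, 1.08% in microglia and 0.638% in oligodendrocytes. It was 0.243% in oligodendrocyte precursors, 0.146% in endothelium, 0.11% in inhibitory neurons, 0.0891% in excitatory neurons, 0.08% in pericytes, 0.053% in other neurons, 0.0298% in choroid plexus and 0% in border macrophages. In the type where most genes were called, astrocytes, 0 of 8 tested members were. The 3 values of each group did not overlap for 17 of the 109 pairs, 7 higher and 10 lower in LPA libraries. For all genes tested such a gap was found in 25.5% in astrocytes, 19.5% in committed and newly formed oligodendrocytes, 17.5% in neuroblasts, 17% in ependyma, 15.7% in oligodendrocytes, 15.2% in microglia, 15.1% in meningeal fibroblasts, 13.3% in inhibitory neurons, 13.3% in oligodendrocyte precursors, 13.2% in excitatory neurons, 12.8% in pericytes, 12.7% in endothelium, 11.5% in other neurons and 11.4% in choroid plexus. The members' count was near this background.

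**Figure D4:**
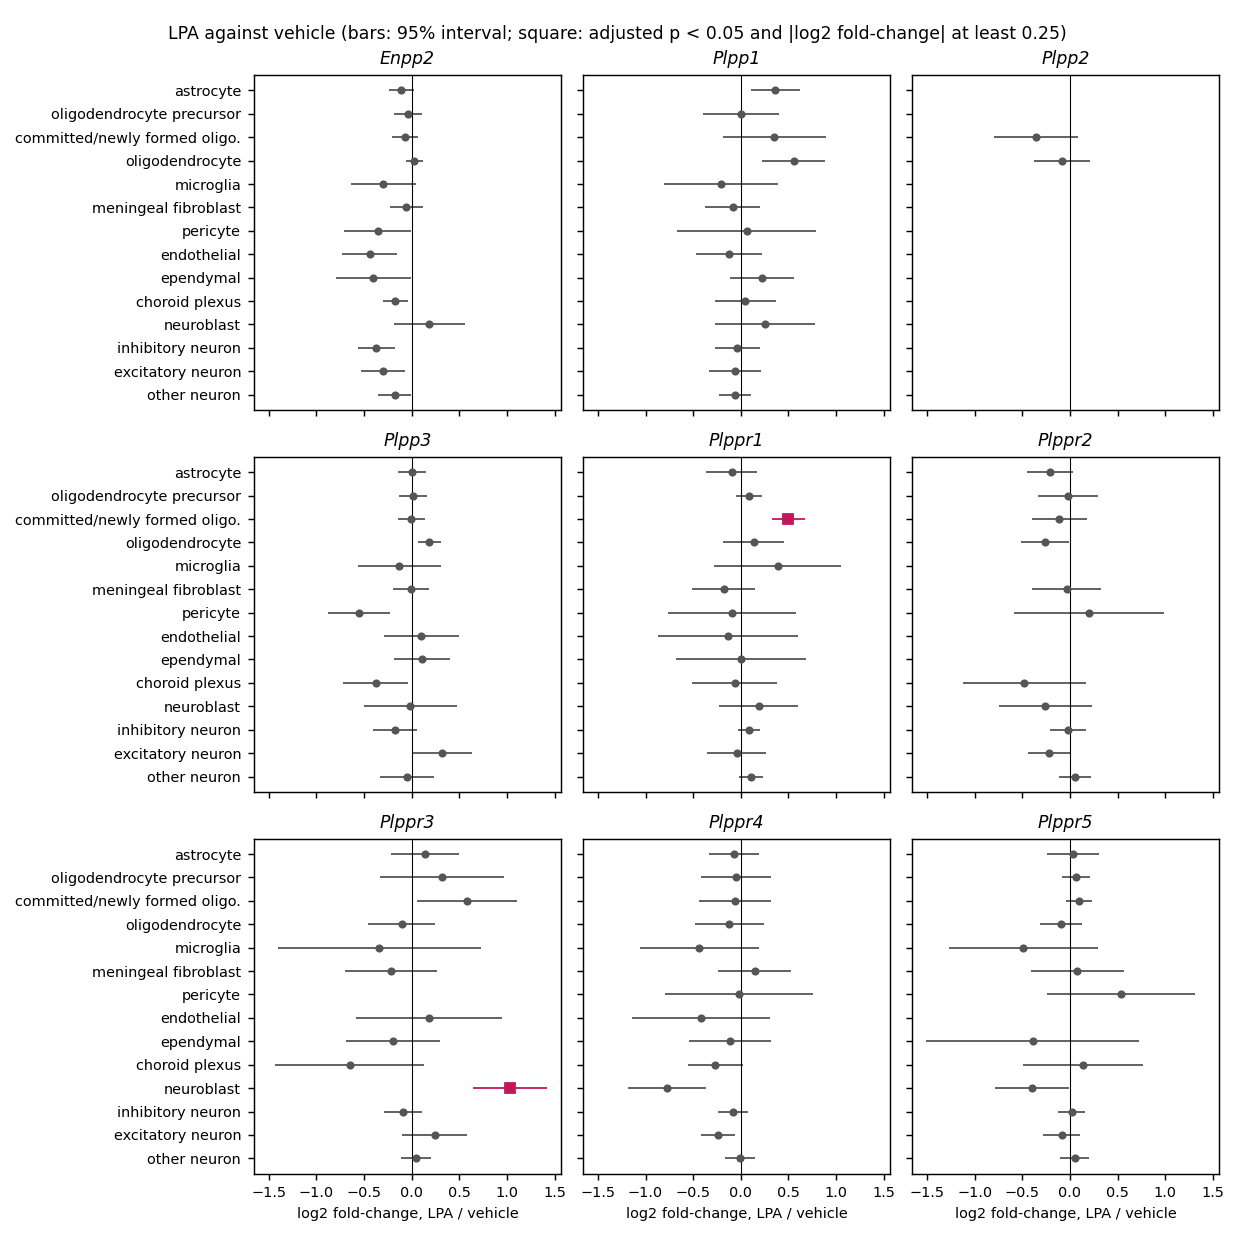
Log2 fold-change of LPA over vehicle for each member (panels) in the cell types where it was tested, with 95% intervals from edgeR's standard error. Squares mark the 2 pairs that were called, Plppr1 in committed and newly formed oligodendrocytes (0.50) and Plppr3 in neuroblasts (1.03). Most of the Enpp2 and Plppr4 points lie left of 0 and most intervals of Plpp3 span 0.

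Enpp2 was not called in any of the 14 types tested. In choroid plexus its level on the scale of CPM with edgeR's TMM factors (scaled CPM) was 5760, 6107 and 5633 in LPA 1, 2 and 3 and 6906, 6350 and 6464 in vehicle 1, 2 and 3. All LPA values were below all vehicle values, with a log2 fold-change of -0.17 ± 0.07 (SE, 95% interval -0.30 to -0.04), and edgeR's adjusted p was 0.72. In oligodendrocytes the scaled CPM of Enpp2 were 2063, 2139 and 2038 in LPA and 2134, 2002 and 1987 in vehicle libraries, which overlapped, and the 95% interval of the log2 fold-change was -0.06 to 0.12. Enpp2 in committed and newly formed oligodendrocytes (-0.07 ± 0.07), in oligodendrocyte precursors (-0.04 ± 0.07) and in meningeal fibroblasts (-0.06 ± 0.09) overlapped between groups as well.

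In the 9 tested types with these low Enpp2 levels, its log2 fold-change was below 0 except in neuroblasts (0.19). The inhibitory neurons had 49.97, 56.2 and 48.7 scaled CPM in LPA and 71.0, 70.1 and 59.3 in vehicle libraries, apart in all 6, with a log2 fold-change of -0.37 ± 0.10 and an edgeR adjusted p of 0.26. Endothelium (-0.44), excitatory neurons (-0.30) and astrocytes (-0.11) were also apart, at adjusted p of 0.36, 0.57 and 0.38 by edgeR. Over all 14 types, 12 of the log2 fold-changes of Enpp2 were below 0, with a median of -0.17, and 4 had an unadjusted p below 0.05. The Enpp2 level computed from Ttr was 21.03 CPM in LPA and 22.1 CPM in vehicle libraries for inhibitory neurons, 18.2 and 22.5 CPM for excitatory neurons, 34.7 and 41.0 CPM for astrocytes and 44.6 and 41.7 CPM for endothelium. It was lower in LPA libraries in the first 3 of these types, but it also holds the choroid plexus Enpp2 level, 5609 CPM in LPA and 6388 in vehicle libraries. Ttr itself was 23.2 CPM in LPA and 20.7 in vehicle libraries for inhibitory neurons and 20.0 and 20.3 for excitatory neurons. It was 38.1 and 38.5 CPM for astrocytes and 49.0 and 37.6 CPM for endothelium. The part of free RNA in the Enpp2 differences was not tested.

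Within meningeal fibroblasts the Enpp2 difference had opposite signs in different clusters. In the Aox3 cluster Enpp2 was 361, 476 and 384 scaled CPM in LPA and 322, 369 and 345 in vehicle libraries, with a log2 fold-change of 0.24 ± 0.11 and an adjusted p of 0.39 by edgeR. In the Ptgds cluster it was 531, 547 and 505 in LPA and 706, 574 and 655 in vehicle libraries (-0.28 ± 0.13, edgeR adjusted p = 0.84), and in the Slc47a1 cluster 89.4, 106 and 100 against 113, 135 and 138 (-0.38 ± 0.15, edgeR adjusted p = 0.42). LPA and vehicle values overlapped in the first and were apart in the other 2 clusters, none was called, and the difference between clusters was not tested.

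The Plpp genes showed no called change. Plpp3 in astrocytes, its main site, was 1514, 1423 and 1659 scaled CPM in LPA and 1718, 1462 and 1408 in vehicle libraries, with a log2 fold-change of 0.00 ± 0.07 (95% interval -0.14 to 0.15). The makeup of the class moved between groups, since the cluster led by Gfap, where the pooled Plpp3 level was lowest (1054 CPM), held 25.8% of astrocytes in LPA and 12.9% in vehicle libraries. Within the 3 astrocyte clusters the log2 fold-change of Plpp3 was 0.08 ± 0.08 (the largest, led by Grin2c), 0.14 ± 0.08 (led by Slc6a11) and 0.18 ± 0.12 (led by Gfap), and none was called. In oligodendrocytes Plpp3 was 178, 178 and 167 in LPA and 148, 156 and 154 scaled CPM in vehicle libraries, all LPA values above all vehicle values (0.19 ± 0.06, edgeR adjusted p = 0.23). In pericytes it went the other way, with 108, 135 and 99.9 in LPA and 147, 177 and 175 in vehicle libraries, again without overlap (-0.55 ± 0.17, edgeR adjusted p = 0.29). Slc1a2, read as the sign of astrocyte RNA, was 135 CPM in LPA and 139 in vehicle oligodendrocytes, and 339 and 314 CPM in pericytes, and its part in the Plpp3 differences was not tested. Plpp3 in choroid plexus was 149, 111 and 141 in LPA and 213, 177 and 126 scaled CPM in vehicle libraries, overlapping (-0.38 ± 0.17, edgeR adjusted p = 0.85). In meningeal fibroblasts the log2 fold-change of Plpp3 was -0.005 ± 0.10, with the 95% interval from -0.19 to 0.18.

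Plpp1 in oligodendrocytes was 18.7, 14.7 and 18.3 scaled CPM in LPA and 8.70, 13.7 and 12.03 in vehicle libraries, apart, with a log2 fold-change of 0.55 ± 0.17 and an edgeR adjusted p of 0.21. In astrocytes Plpp1 was 29.4, 36.4 and 44.2 in LPA and 28.8, 26.5 and 30.2 in vehicle libraries, overlapping through LPA 1 (0.36 ± 0.13, edgeR adjusted p = 0.11). This pair was called without LPA 1, at a log2 fold-change of 0.50, and without the filter on low counts, at 0.37. The Gfap cluster, whose larger share in LPA libraries is given above, had the highest pooled Plpp1 level of the 3 astrocyte clusters (52.1 against 31.0 and 23.5 CPM). Within clusters the log2 fold-change of Plpp1 was 0.20 ± 0.14 in the Grin2c, 0.02 ± 0.22 in the Slc6a11 and 0.62 ± 0.27 in the Gfap cluster, none called. In the 3 types with the highest Plpp1 levels the groups overlapped, with log2 fold-changes of 0.22 ± 0.17 in ependyma, 0.05 ± 0.16 in choroid plexus and -0.12 ± 0.18 in endothelium. Ependymal values carry a further limit, because 153 of the 155 nuclei of 1 ependymal cluster came from LPA libraries. Plpp2 could be tested in 2 types and overlapped in both, with -0.08 ± 0.15 in oligodendrocytes and -0.36 ± 0.23 in committed and newly formed oligodendrocytes.

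Plppr1 rose in committed and newly formed oligodendrocytes. Its scaled CPM were 91.8, 90.1 and 80.2 in LPA and 62.6, 65.9 and 56.2 in vehicle libraries, without overlap, with a log2 fold-change of 0.50 ± 0.09 (95% interval 0.32 to 0.68) and an adjusted p of 0.00425 by edgeR. The class holds 3 clusters, and none of them showed a called difference alone. In the Gpr17 cluster Plppr1 was 362, 416 and 392 in LPA and 388, 389 and 319 scaled CPM in vehicle libraries, overlapping (0.09 ± 0.11, edgeR adjusted p = 0.93). In the Tmem108 cluster the values were 67.6, 39.8 and 52.2 against 30.6, 45.0 and 43.9 (0.37 ± 0.21, edgeR adjusted p = 0.74), and in the Cemip2 cluster 12.7, 19.2 and 11.3 against 18.6, 19.7 and 17.6 (-0.34 ± 0.22, edgeR adjusted p = 0.80). The Gpr17 cluster, where the Plppr1 level was highest, made up 25.2%, 24.2% and 22.2% of the class in LPA and 15.96%, 15.7% and 14.4% in vehicle libraries. The Cemip2 cluster, where it was lowest, made up 41.8%, 43.9% and 46.4% in LPA and 57.2%, 54.7% and 55.4% in vehicle libraries. The makeup of the class thus moved with the Plppr1 difference of the whole class.

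In the nuclei named neuroblasts from a marker list that includes Dlx genes and Dcx, Plppr3 rose. The scaled CPM were 105, 96.3 and 93.7 in LPA and 44.9, 54.6 and 45.6 in vehicle libraries, without overlap, and the log2 fold-change was 1.03 ± 0.20 (95% interval 0.64 to 1.42) with an adjusted p of 0.0158 by edgeR. Vehicle 3 contributed 469 of the 1170 neuroblasts, and without it the log2 fold-change was 0.94 with an adjusted p of 0.24 by edgeR. The call was also lost without LPA 1 (0.99, adjusted p = 0.056 by edgeR), without LPA 2 (1.04, adjusted p = 0.062) and without vehicle 2 (1.10, adjusted p = 0.060), and with nuclei over the mitochondrial limit kept (0.56, adjusted p = 0.32). A finer clustering split these nuclei into a cluster of 374 with more Top2a (37.5 against 0.82 CPM), Dlx6os1 (1349 against 356 CPM) and Igfbpl1 (274 against 36.3 CPM), and a cluster of 795. Top2a encodes a topoisomerase of dividing cells. Plppr3 in the former was 187, 189 and 191 in LPA and 207, 233 and 140 scaled CPM in vehicle libraries, overlapping (0.06 ± 0.31, edgeR adjusted p = 0.97). In the latter it was 72.9, 53.1 and 73.3 in LPA and 18.9, 36.3 and 42.1 in vehicle libraries, apart but not called (0.82 ± 0.27, edgeR adjusted p = 0.59). The cluster with more Top2a and the higher Plppr3 level was 61.2%, 62.0% and 39.8% of neuroblasts in LPA and 31.2%, 18.3% and 10.0% in vehicle libraries. When types were named at the finer resolution, the neuroblast fit had the same 3342 tested and 74 called genes as this cluster alone. The name thus stayed with the cluster of 374 nuclei and not with that of 795. Sox11, a marker on the list, was 160 CPM in the former and 28.7 CPM in the latter.

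**Figure D5:**
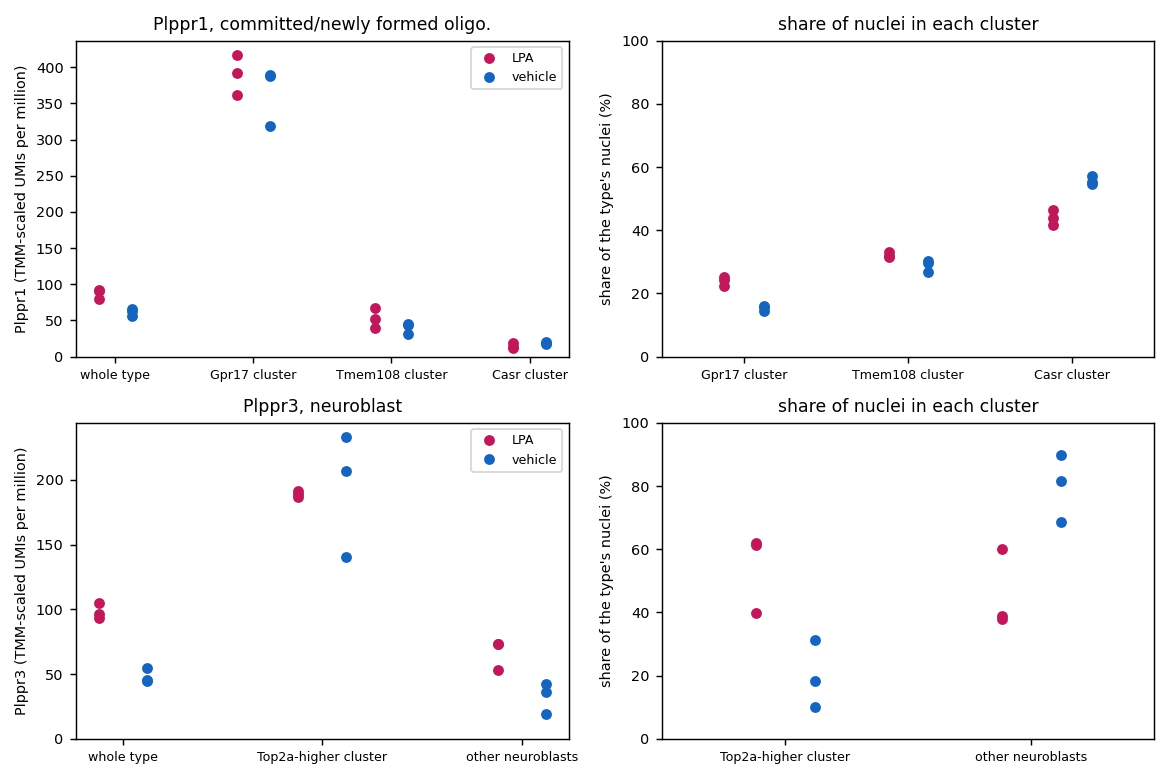
Left, scaled UMIs per 1000000 of Plppr1 (top) and Plppr3 (bottom) in the whole class and in each of its clusters, with 1 point per library. Right, the share (%) of the class's nuclei in each cluster. The groups are apart in the whole class for both genes, overlap in the Gpr17 cluster and in the cluster with more Top2a, and are apart in the share of nuclei of those clusters.

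Plppr4 and Plppr5, both higher in the cluster of 795 nuclei, had log2 fold-changes below 0 in neuroblasts, and neither was called in the fit without a block. In neuroblasts as a whole, Plppr4 was 72.2, 102 and 118 in LPA and 130, 147 and 204 scaled CPM in vehicle libraries, without overlap (-0.77 ± 0.21, edgeR adjusted p = 0.078). Its pooled level was 35.4 CPM in the cluster with more Top2a and 165 CPM in the other, and in the latter alone the log2 fold-change was -0.41 ± 0.19 (edgeR adjusted p = 0.77). With nuclei over the mitochondrial limit kept it was -0.04, and without vehicle 3 it was -0.49. Plppr5 in neuroblasts was 184, 174 and 286 in LPA and 234, 278 and 322 scaled CPM in vehicle libraries, overlapping (-0.40 ± 0.20, edgeR adjusted p = 0.38), with pooled levels of 137 and 281 CPM in the same 2 clusters. Leaving out LPA 3, whose Plppr5 and Plppr4 values were the highest of the LPA group, both were called lower, at -0.68 and -0.95. Plppr4 was also called lower without vehicle 1 (-0.86), with the replicate block (-0.71, edgeR adjusted p = 0.017), without the filter on low counts (-0.75) and without Scrublet doublets (-0.86).

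No other pair of a Plppr gene and a type was called, although some log2 fold-changes were about as large as that of Plppr1 above, such as -0.48 ± 0.33 for Plppr2 in choroid plexus and 0.53 ± 0.40 for Plppr5 in pericytes. Plppr4 was below 0 in 13 of 14 types, with a median log2 fold-change of -0.10, and apart in excitatory neurons (130, 124 and 138 against 155, 159 and 149 scaled CPM, -0.24 ± 0.09, edgeR adjusted p = 0.56) and microglia (-0.43 ± 0.32) as well. Plppr1 in oligodendrocyte precursors, its main site, was 664, 687 and 787 in LPA and 670, 678 and 666 scaled CPM in vehicle libraries, overlapping (0.09 ± 0.07, interval -0.05 to 0.23). In inhibitory neurons Plppr1 was 366, 368 and 371 against 338, 351 and 352, apart but small (0.08 ± 0.06, edgeR adjusted p = 0.78). Plppr5 in oligodendrocyte precursors was 332, 331 and 340 in LPA and 326, 298 and 339 in vehicle libraries, overlapping (0.06 ± 0.07). Plppr2 was tested in 11 types, was below 0 in 9 and apart in oligodendrocytes (16.4, 19.7 and 19.5 against 19.8, 24.0 and 22.5 scaled CPM, -0.26 ± 0.13, edgeR adjusted p = 0.51). Plppr3 outside neuroblasts had log2 fold-changes from -0.65 in choroid plexus to 0.58 in committed and newly formed oligodendrocytes, none called.

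Differences of the LPA effect between types were tested directly for 3 pairs of types, with the library as a block, and 0 of the 25 member tests were called. Choroid plexus against oligodendrocytes gave the lowest p by edgeR's quasi-likelihood test, for Plpp3, whose log2 fold-change differed by -0.55 ± 0.17 (choroid plexus minus oligodendrocytes, edgeR adjusted p = 0.42). For Enpp2 the same contrast was -0.19 ± 0.12 (edgeR adjusted p = 0.93). The Plpp1 effect was 0.45 ± 0.18 higher in astrocytes than in meningeal fibroblasts (edgeR adjusted p = 0.26). In all, 4 of the 25 had an unadjusted p below 0.05, as did 5.73% of all genes between choroid plexus and oligodendrocytes, 7.95% between choroid plexus and ependyma and 11.9% between astrocytes and meningeal fibroblasts. Of all genes, 0.0361% were called between choroid plexus and oligodendrocytes, 0.129% between choroid plexus and ependyma and 1.99% between astrocytes and meningeal fibroblasts.

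Summed over all nuclei, 0 of the 9 members were called by edgeR, where 5.62% of all genes were, and 3 had an unadjusted p below 0.05, as did 20.9% of all genes. In such sums fewer cells of a type and less RNA per cell cannot be told apart. Enpp2 was 531, 593 and 546 in LPA and 699, 598 and 584 scaled CPM in vehicle libraries, overlapping (-0.17 ± 0.08, edgeR adjusted p = 0.25). Plppr1 was 162, 170 and 157 against 148, 148 and 147, apart (0.15 ± 0.05, edgeR adjusted p = 0.098), and Plpp2 was 3.36, 3.64 and 3.30 against 4.41, 4.02 and 4.35, apart (-0.31 ± 0.11, edgeR adjusted p = 0.14). Plpp3 overlapped between groups (0.20 ± 0.07, edgeR adjusted p = 0.16). Over all genes 26.2% were apart between the groups.

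The rest of the LPA pathway was described from lists, by the same test. Of the LPA receptors Lpar1 to Lpar6, 31 of 90 pairs with a type were tested, 2 rose and 1 fell. Lpar6 fell in oligodendrocytes from 56.2, 56.1 and 59.1 scaled CPM in vehicle to 40.7, 36.8 and 32.7 in LPA libraries (-0.64 ± 0.09, edgeR adjusted p = 0.00397). Lpar1 rose in astrocytes (0.43 ± 0.12, edgeR adjusted p = 0.028) and Lpar3 in oligodendrocyte precursors, where its level was 10.5, 10.5 and 12.2 against 3.77, 2.39 and 3.93 scaled CPM (1.76 ± 0.39, edgeR adjusted p = 0.045). Both of these calls were lost when LPA 1 was left out, and neither was called by DESeq2. Summed over all nuclei, where cell shares and RNA per cell mix, Lpar1 fell (-0.29 ± 0.05, edgeR adjusted p = 0.011). Of all genes tested, 7.94% were called in astrocytes, 0.638% in oligodendrocytes, 0.243% in oligodendrocyte precursors and 5.62% over all nuclei. Among 12 other genes listed under LPA synthesis, 121 pairs were tested and 2 fell, the phospholipase gene Pld1 (-0.43) and the phosphodiesterase gene Gde1 (-0.33), both in astrocytes. Gpam, on the same list, was called in no type but rose over all nuclei (0.49 ± 0.08, edgeR adjusted p = 0.011). Among 9 genes listed under LPA use, 102 pairs were tested. Mboat1, a lysophospholipid acyltransferase gene, rose in astrocytes from 4.80, 5.89 and 4.63 scaled CPM in vehicle to 14.1, 14.9 and 23.0 in LPA libraries (1.72 ± 0.22, edgeR adjusted p = 8.8e-05), and Agpat5, an acyltransferase gene that uses LPA to make phosphatidic acid, fell there (-0.30). In the largest astrocyte cluster alone the log2 fold-change of Mboat1 was 0.07. The other 3 calls were lost there too, at -0.16 for Agpat5, -0.36 for Pld1 and -0.28 for Gde1. A place on these lists does not show that the product of Mboat1, Pld1 or Gde1 acts on LPA itself, which was not tested.

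Of the 4 further phosphatase genes of the family, Plpp4 to Plpp7, 35 pairs were tested and 1 rose, Plpp4 in committed and newly formed oligodendrocytes, from 18.1, 20.3 and 18.9 scaled CPM in vehicle to 33.0, 36.0 and 27.3 in LPA libraries (0.75 ± 0.14, edgeR adjusted p = 0.00578). This is the type in which Plppr1 rose and the cluster shares differed, and the call was lost in its largest cluster alone. Plpp4 also rose over all nuclei (0.37 ± 0.08, edgeR adjusted p = 0.037). Among the other Enpp genes, 39 pairs were tested and 1 rose, Enpp1, a pyrophosphatase gene, in meningeal fibroblasts (0.56 ± 0.09, edgeR adjusted p = 0.00177), from 131, 130 and 123 to 197, 172 and 199 scaled CPM. Of all genes tested, 2.58% were called in committed and newly formed oligodendrocytes and 1.16% in meningeal fibroblasts. The median log2 fold-changes of the 5 lists lay between -0.20 and 0.02.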

How the data were processed

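Nuclei from 3 LPA and 3 vehicle libraries were analysed from the filtered UMI count matrices that the authors deposited, made per the labels with Cell Ranger 4.0.0 against mm10 and, per the study's methods, a pre-mRNA reference, so that intronic UMIs are included. Kept nuclei had 300 genes or more, no more than 1% of UMIs from mitochondrial genes and a UMI total within 1.5 times the interquartile range. They were clustered with scanpy 1.11.5 and leidenalg 0.10.2 on 3000 variable genes without the members, and clusters were named from marker lists by score limits set after the clusters were seen. Scrublet called 12.7% to 15.4% of kept nuclei as doublets, which stayed in except in an alternative. Counts were summed per library and type and tested with edgeR 4.0.16 in R 4.3.3 (quasi-likelihood, TMM factors, filterByExpr), with DESeq2 1.42.0 as an alternative. The fits were tested on simulated data. Replicate libraries differed beyond sampling noise. All 9 members are described in the 15 types with at least 10 nuclei in every library, and only some of them in the other named types. The listed pathway genes that were called and the 3 genes nearest in pattern are given too. The members and lists were chosen with earlier results of these data known. The levels computed from Ttr and Slc1a2, the fits within clusters and the fit without shared barcodes were chosen after seeing the data. A level of free oligodendrocyte RNA is not reported here. Intervals of level cover the spread between libraries only.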

Additional observations from a re-analysis of the deposited data

Results flagged for a closer look

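The log2 fold-change of Plpp3 was 0.19 in oligodendrocytes and -0.55 in pericytes. Every LPA library lay above every vehicle library in the first type and below in the second, and the difference between the 2 types was not tested. Neither value was called by edgeR's quasi-likelihood test.

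Of the Enpp2 UMIs, 17.8% lay in nuclei that were left without a type and enter no comparison by type. These nuclei were 15.1% of all nuclei kept, and most belonged to clusters with markers of 2 classes.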

How the results depend on the processing

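Against 2 pairs of a member and a type called higher, 1 was called with nuclei over the mitochondrial limit kept and 1 at Leiden resolution 2. The largest cluster of each type also gave 1, Plppr3 in neuroblasts. That type is a lone cluster, so this fit repeats the main one, while the Plppr1 call was lost. Leaving out a library gave 1 to 2, with Plpp1 in astrocytes among them without LPA 1. Without the filter on low counts, Plpp1 in astrocytes was called higher as well. Against 0 called lower, 2 were called without the filter on low counts (Enpp2 in inhibitory neurons and Plppr4 in neuroblasts), 1 without Scrublet doublets and 0 to 2 when a library was left out. The labels do not say whether the replicate numbers pair the libraries, and correlations between libraries do not settle it. Over all nuclei, deviations of same-numbered libraries correlated at 0.27, 0.58 and -0.11 for numbers 1, 2 and 3. In astrocytes the values were 0.21, 0.34 and -0.30. The best other vehicle library gave 0.53, -0.22 and 0.18 over all nuclei, so LPA 2 correlated best with its own number and LPA 1 and LPA 3 did not. Deviations from a mean of 3 libraries are not independent, which limits this check. Numbers 1 and 2 matched in sex and number 3 did not. With the replicate block, 2 pairs were called higher, 1 lower (Plppr4 in neuroblasts, -0.71) and 0 over all nuclei. DESeq2, its size factors, sex as a term and leaving out shared barcodes (an alternative chosen after seeing the data) left both counts as they were. No member was called over all nuclei or between types in any alternative run.

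Of 643 alternative values for 41 named pairs, 598 kept direction and side of the threshold, 9 gained and 10 lost the call and 26 changed sign, in 10 pairs. Only the 2 called pairs could lose a call, so all 10 losses were theirs. The other named pairs had no call to lose, so the 598 says little about these 2. Signs changed for Plppr1 in committed and newly formed oligodendrocytes in the Cemip2 cluster, the largest of the class (-0.34), and for 9 pairs that were not called. These were Enpp2 in committed and newly formed oligodendrocytes (0.016 at Leiden resolution 2 and 0.094 in the largest cluster), in oligodendrocyte precursors (0.0040 without vehicle 2) and in meningeal fibroblasts (0.24 in the largest cluster), and Plpp1 in choroid plexus (-0.024 with sex as a term, -0.061 without doublets, -0.039 to 0.19 leaving out a library). Plpp3 in astrocytes was -0.0098 with the mitochondrial limit lifted, -0.0046 without doublets, -0.00074 at Leiden resolution 2 and -0.058 to 0.094 leaving out a library, and in meningeal fibroblasts 0.043 with the limit lifted, 0.16 in the largest cluster and -0.14 to 0.063 leaving out a library. Plppr3 was -0.0086 to 0.13 in other neurons and -0.11 to 0.018 over all nuclei when a library was left out, and Plppr5 in neuroblasts was 0.029 with the limit lifted. The cause was not tested.

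The Enpp2 level of choroid plexus was 7176 CPM without doublets. The oligodendrocyte share of Enpp2 UMIs was 50.1% without doublets and 44.3% at Leiden resolution 2, and that of committed and newly formed oligodendrocytes 14.7% and 7.39%. Small types limit what could be seen: with 48 neuroblasts in vehicle 1 and no member testable in border macrophages, a missing call there says little.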
